A study of Mus musculus with 33 samples.

Results

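New joint Sox2 and Nanog sites are positions where both factors had a ChIP-seq summit in Uhrf1 knockout (KO) mouse embryonic stem cells (mESC) and where wild type (WT) mESC had none for Sox2, Nanog or Oct4. They were chosen by summit position: each is a KO Sox2 summit with a KO Nanog summit within 100 bp and no WT summit of any of the 3 factors within 100 bp. This gave 2057 sites, 9.91% of the 20755 summits in the KO Sox2 list. They were 14.8% of the 13901 KO Sox2 summits with no WT summit, and 34.7% of the 5922 KO Sox2 summits that had a KO Nanog summit. The 2057 sites held 2057 different Nanog summits.

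Sox2 is an HMG-box factor that binds the minor groove of DNA, and Nanog is a homeodomain factor. With Oct4, a POU-domain factor that recognises the octamer, they form the core of the transcription network that holds stem cells in the pluripotent state, and they bind many distal enhancers together. Uhrf1 recognises hemimethylated DNA and H3K9 methylation and brings Dnmt1 to newly copied DNA. H3K4me3 marks active and poised promoters, H3K27me3 marks regions repressed by Polycomb, and H3K9me3 marks heterochromatin.

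The series compared WT and Uhrf1 KO E14 mESC, undifferentiated and grown with leukemia inhibitory factor, and embryoid bodies (EBs) of both genotypes at weeks 1, 2 and 3. The WT E14 cells and the 1 Uhrf1 KO line came from another group, the medium was used on gelatin or on feeder cells, and each group was 1 library. There is therefore no replicate error, and no test between WT and KO was made. Of 33 samples, 25 had a list of enriched regions: the 6 factor lists of mESC, 18 lists of histone domains and 1 list of Uhrf1 windows in WT mESC. The lists give regions that passed the authors' callers and not reads. A site called new therefore has no listed WT summit, and lower WT signal was not tested. The WT lists held 5190 Sox2, 2390 Nanog and 12898 Oct4 summits, and the KO lists 20755, 10632 and 576. The lowest Nanog summit had 9 reads in the WT list and 5 in the KO list. The part of list length and of these limits in the number of new sites was not tested. No input library (8 samples) was analysed here. As a check of the cell label, 11 of 12 stem cell marker genes had an H3K4me3 domain within 2 kb of their start in both the WT and the KO list, with Esrrb the exception in each. Bounds in parentheses are 95% bounds by the method of Wilson (shares) or Newcombe (differences), and hold only the error of counting sites. Coordinates are of mm9 (NCBIM37), and a height is the number of reads at a summit.

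The genomic sequence around 14 of the sites is shown first. The first 6 are the highest-ranked for both factors among sites outside exons, and the other 8 are from the 3 sites closest to a gene start in each of 3 gene lists, of the pluripotent state, of the formative and primed state and of DNA methylation. Each is plus-strand sequence of the assembly, with the KO Sox2 summit at its centre and 50 bp on either side. Capitals mark the Sox motif ACAATG, a second form of it, ACAATAG, the homeodomain core TAATGG and the octamer ATGCNAAT, on either strand.

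Intergenic site 65.04 kb from Lao1 (chr4:118699169-118699269): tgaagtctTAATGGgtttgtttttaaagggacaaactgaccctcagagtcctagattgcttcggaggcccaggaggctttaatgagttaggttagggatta
Intergenic site 55.4 kb from Tnp1 (chr1:73007015-73007115): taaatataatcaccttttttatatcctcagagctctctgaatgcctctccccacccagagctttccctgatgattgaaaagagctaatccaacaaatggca
Intergenic site 96.2 kb from Tle3 (chr9:61316388-61316488): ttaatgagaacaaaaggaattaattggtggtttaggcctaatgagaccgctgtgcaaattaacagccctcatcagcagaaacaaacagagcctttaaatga
Site in a Sec16a intron (chr2:26298502-26298602): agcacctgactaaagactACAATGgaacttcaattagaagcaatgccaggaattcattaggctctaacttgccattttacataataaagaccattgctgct
Intergenic site 528.4 kb from Prkd1 (chr12:51221799-51221899): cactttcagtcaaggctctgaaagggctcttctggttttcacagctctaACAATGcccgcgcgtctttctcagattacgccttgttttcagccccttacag
Site in a Gm2792 intron (chr17:6523694-6523794): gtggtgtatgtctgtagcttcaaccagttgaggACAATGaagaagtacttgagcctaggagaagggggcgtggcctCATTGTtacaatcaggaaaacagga
Site upstream of Sall1 (chr8:91569342-91569442): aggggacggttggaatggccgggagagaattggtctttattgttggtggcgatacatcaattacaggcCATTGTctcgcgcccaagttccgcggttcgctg
Site in a Mycn intron (chr12:12945640-12945740): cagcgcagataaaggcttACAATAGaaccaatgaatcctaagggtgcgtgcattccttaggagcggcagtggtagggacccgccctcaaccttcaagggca
Site upstream of Fgf4 (chr7:152041053-152041153): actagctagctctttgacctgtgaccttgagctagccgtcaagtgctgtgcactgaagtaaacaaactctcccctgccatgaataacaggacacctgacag
Site in an Etv4 intron (chr11:101639544-101639644): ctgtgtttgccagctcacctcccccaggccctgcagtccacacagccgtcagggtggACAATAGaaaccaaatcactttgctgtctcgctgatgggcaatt
Site downstream of Otx2 (chr14:49274321-49274421): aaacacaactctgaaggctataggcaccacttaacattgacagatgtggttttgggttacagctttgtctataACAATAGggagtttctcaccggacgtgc
Site downstream of Foxd3 (chr4:99342000-99342100): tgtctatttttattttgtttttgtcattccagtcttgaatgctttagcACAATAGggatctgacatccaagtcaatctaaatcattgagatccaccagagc
Site upstream of Dnmt3l (chr10:77501170-77501270): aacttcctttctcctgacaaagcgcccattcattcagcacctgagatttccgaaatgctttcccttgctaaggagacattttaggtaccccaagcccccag
Site upstream of Uhrf2 (chr19:30081026-30081126): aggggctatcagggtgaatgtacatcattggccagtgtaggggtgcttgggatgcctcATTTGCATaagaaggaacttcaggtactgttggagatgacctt

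Of the 14 windows, 4 held none of the 4 motifs, namely those of the Tnp1, Tle3, Fgf4 and Dnmt3l sites. The Mycn, Etv4, Otx2 and Foxd3 windows each held 1 match to ACAATAG. The Sec16a, Prkd1 and Sall1 windows each held 1 match to ACAATG and the Gm2792 window 2, the Lao1 window held 1 match to TAATGG and the Uhrf2 window 1 octamer. The Prkd1 site had a WT summit 120 bp away.

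Sox2 and Nanog summits lay close together at the new joint sites. The distance between them had a median of 34 bp and quartiles of 16 and 57 bp, and was at most 50 bp at 1413 sites (68.7%). A KO Oct4 summit lay within 100 bp at 6 sites (0.292%, interval 0.134 to 0.635), where all KO Sox2 summits gave 1.27%. The KO Oct4 list held 576 summits, against 12898 in WT, so few KO Sox2 summits of any kind could have one. Of the 263 KO Sox2 summits that did, 226 had both a KO Nanog summit and a WT summit within 100 bp. The 6 new joint sites had Sox2 heights of 19 to 57 reads.

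Most new joint sites were far from any WT summit. The distance to the nearest had a median of 33008 bp and quartiles of 6627 and 100847 bp, and exceeded 10 kb at 1451 sites (70.5%). At 131 sites (6.37%) the nearest WT summit was over 100 and up to 200 bp away, and at 106 sites (5.15%) over 200 and up to 1000 bp. The nearest WT summit was one of Oct4 at 1432 sites, of Sox2 at 458 and of Nanog at 178, with ties counted for each factor. The WT lists were of unequal length, with 12898, 5190 and 2390 summits in that order, and the counts were not scaled for it. The sites were scattered along the genome: 8 had another new joint site within 1 kb and 137 (6.66%) within 10 kb.

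Heights follow from the rule, which takes summits, and are given as a description. Sox2 heights of the new joint sites ran from 9 to 529 reads, with a median of 21 and quartiles of 17 and 28, and their Nanog heights from 5 to 188 reads, with a median of 12 and quartiles of 9 and 17. The median over the whole KO lists was 18 reads for Sox2 and 12 for Nanog. New Sox2-only sites, the 11833 KO Sox2 summits with no WT summit and no KO Nanog or Oct4 summit within 100 bp, had a lower median of 15 reads. Joint KO sites with a WT summit, the 3865 KO Sox2 summits that had a KO Nanog summit and a WT summit within 100 bp, were taller, with medians of 37 reads for Sox2 and 18 for Nanog. New joint sites were intermediate in Sox2 height, and their median Nanog height equalled that of the KO list.

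Both heights rose together within the new joint sites, with a Spearman correlation of 0.40 and a Pearson correlation of log2 heights of 0.45 over 2057 sites. In joint KO sites with a WT summit these were 0.59 and 0.62. All points of a set share the same pair of libraries. The fifth of new joint sites with the tallest Sox2 summits, of 30 to 529 reads, had a median Nanog height of 17 reads, against 10 reads in the fifth with the lowest, of 9 to 16 reads. Of the new joint sites, 1011 (49.1%) reached the median Sox2 height of the WT list, 22 reads, whereas 320 (15.6%) reached the median Nanog height of the WT list, 21 reads. Heights were not scaled for library depth here, so these counts do not compare binding between the libraries.

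**Figure D1:**
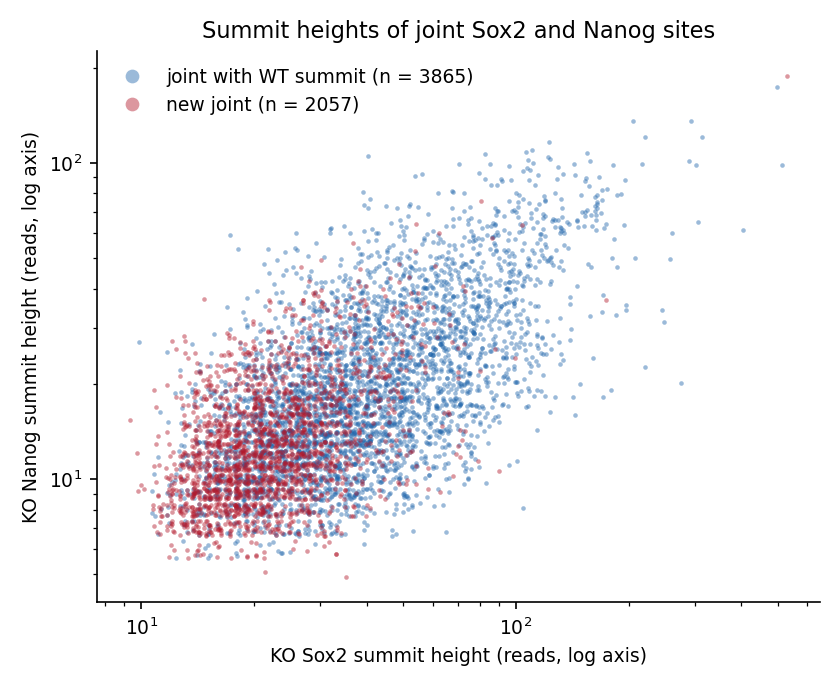
Height of the KO Nanog summit against height of the KO Sox2 summit, both in reads on log axes, with a small random shift so that equal heights do not hide each other. Each point is a site, and the new joint sites (red, medians 21 and 12 reads) lie in the lower left of the cloud of joint KO sites with a WT summit (blue, medians 37 and 18 reads).

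Close to the thresholds the heights changed little. The 169 new joint sites whose Nanog summit was 81 to 100 bp away had medians of 20 reads for Sox2 and 11 for Nanog, against 18.5 and 10 at the 106 summits just outside, over 100 and up to 120 bp away. The 69 sites with a WT summit over 100 and up to 120 bp away had medians of 25 and 13 reads, against 26 and 14 at the 99 joint sites just outside the rule, with a WT summit at 81 to 100 bp.

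The 12 sites that stood highest in both lists had Sox2 heights of 54 to 529 reads and Nanog heights of 37 to 188 reads. Of these, 7 were intergenic, 3 intronic, 1 in an exon outside UTRs and 1 in a UTR. WT H3K4me3 covered 7 of them and KO H3K4me3 covered 4, WT H3K9me3 covered 3 and KO H3K9me3 covered 5. WT H3K27me3 covered 2, KO H3K27me3 none, and Uhrf1 windows 2. At 3 of the 12 a WT summit lay within 200 bp.

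The tallest of the 12 stood apart from all others. It lay on chromosome 2 at 98504048, in an exon of Gm10801, with a Sox2 height of 529 reads and a Nanog height of 188 reads. The next tallest new joint sites had 174 reads for Sox2 and 76 for Nanog. It was inside an H3K4me3 domain in 8 of 8 lists, an H3K27me3 domain in 4 of 8, both H3K9me3 lists and a Uhrf1 window. It had 3 KO Nanog summits within 5 kb, of 188, 226 and 228 reads, and its nearest WT summit was 180594 bp away. Whether read mapping has a part in these values was not tested. Without it, 2056 sites remained and both median heights were the same, 21 and 12 reads.

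The other named sites had more ordinary heights. The site on chromosome 4 at 118699219, intergenic and 65.04 kb from the start of Lao1, an amino acid oxidase gene, had 104 Sox2 and 64 Nanog reads. It lay in H3K4me3 in both genotypes and in H3K9me3 in KO alone. The site on chromosome 9 at 61316438, 96.2 kb from the start of Tle3, a Groucho family corepressor, had 81 and 76 reads and was in none of the domains of mESC. The site on chromosome 2 at 26298552, in an intron of Sec16a, which acts at the exit sites of the endoplasmic reticulum, had 72 and 41 reads, 2.18 kb from the start, with H3K4me3 in both genotypes. The site on chromosome 17 at 5052345, in an intron of Arid1b, a subunit of the BAF remodelling complex, had 55 and 39 reads and no listed mark. These sites differed in their marks, with and without H3K4me3 at similar heights.

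New joint sites were less often near gene starts than new Sox2-only sites were. Of 2057 sites, 57 (2.77%, 2.14 to 3.57) lay within 1 kb of the start of a protein-coding gene, where all KO Sox2 summits gave 24.1%. New Sox2-only sites gave 37.0% (36.1 to 37.8), and the difference was -34.2 points (-35.3 to -33.01). Joint KO sites with a WT summit gave 3.18%, a difference of -0.411 points whose interval included 0 (-1.28 to 0.538). New Nanog-only sites, the 3647 KO Nanog summits with no WT summit and no KO Sox2 or Oct4 summit within 100 bp, gave 2.60%, and here too the interval of the difference included 0 (-0.680 to 1.10).

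**Figure D2:**
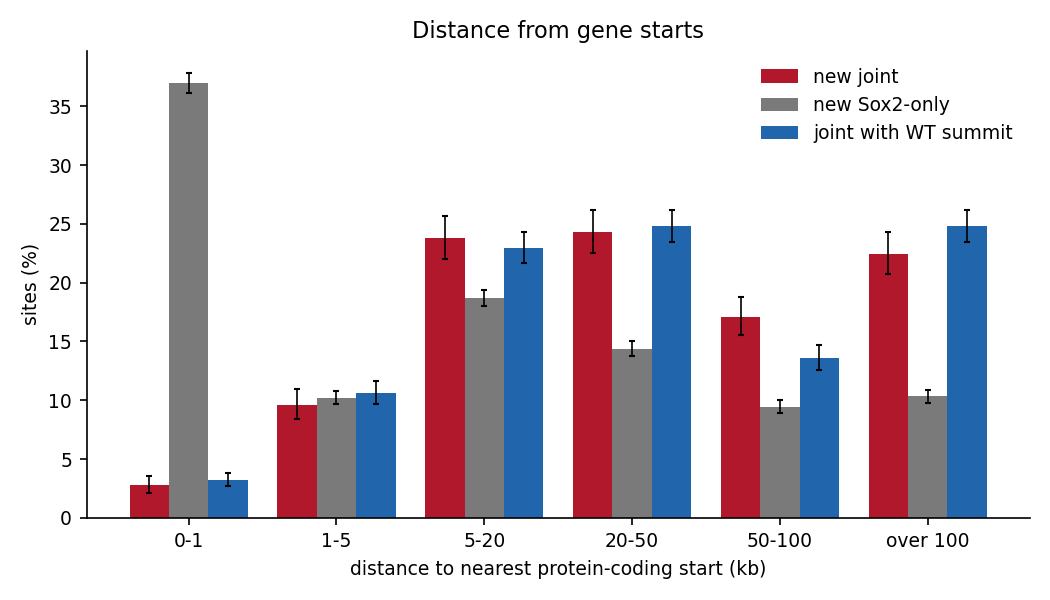
Share of sites, in percent with Wilson 95% intervals, by distance in kb from the KO Sox2 summit to the nearest protein-coding start. Within 1 kb stood 37.0% of new Sox2-only sites against 2.77% of new joint sites and 3.18% of joint KO sites with a WT summit.

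The median distance to a start was 34.6 kb in new joint sites, 33.3 kb in joint KO sites with a WT summit, 36.7 kb in new Nanog-only sites and 6.65 kb in new Sox2-only sites. Over 50 kb from any start lay 39.6% of new joint sites, 38.4% of joint KO sites with a WT summit and 27.3% of all KO Sox2 summits. Introns held 41.9% (861 sites) and intergenic sequence 54.6% (1124 sites), while exons held 3.50% (72 sites) and UTRs, which are part of the exons, 2.04%. New Sox2-only sites were in introns at 30.7% and in exons at 21.5%. The difference was 11.1 points (8.85 to 13.4) for introns and -18.03 points (-19.07 to -16.9) for exons.

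The base composition of the sites followed this position. Sequence was read for 2053 sites, since 4 lay on unplaced sequence. The window of 100 bp on either side of a new joint site had a median G+C content of 47.3% and a median of 2 CpG, against 58.7% and 8 CpG at new Sox2-only sites and 46.8% and 2 CpG at joint KO sites with a WT summit. At least 10 CpG were present in 1.95% of new joint and 46.6% of new Sox2-only windows.

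Short motifs of the 3 factors were then counted in the same windows, on either strand. The Sox motif ACAATG was present at 629 new joint sites (30.6%, 28.7 to 32.7), where all KO Sox2 summits gave 18.5% and consecutive windows of the same length over the genome 12.6%. New Sox2-only sites gave 15.1% and joint KO sites with a WT summit 24.0%, so that new joint sites were 15.6 (13.5 to 17.7) and 6.62 points higher (4.23 to 9.04). The latter difference was 10.9 points (8.19 to 13.7) within 5 equal groups of Sox2 height. The share also differed with height among the new joint sites, from 25.3% (104 of 411) in the fifth with the lowest Sox2 summits to 40.1% (165 of 411) in the fifth with the tallest.

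The homeodomain core TAATGG, a sequence that Nanog is known to bind, was present at 256 new joint sites (12.5%, 11.1 to 13.97). All KO Sox2 summits gave 6.62% and the windows of the genome 8.69%. New joint sites were 8.07 points above new Sox2-only sites (6.66 to 9.61), which gave 4.40%. A KO Nanog summit is required at the former and excluded at the latter, so this difference is not independent of the rule. The difference from new Nanog-only sites, which gave 16.3%, was -3.84 points (-5.68 to -1.94). Windows of that set were centred on the Nanog summit and those of new joint sites on the Sox2 summit, so the windows are unlike. The difference from joint KO sites with a WT summit, at 11.9%, was 0.589 points (-1.13 to 2.38) and turned to -2.25 points (-4.60 to 0.0906) within height groups, and both intervals included 0.

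The octamer, searched as ATGCNAAT and thus including ATGCAAAT, was present at 166 new joint sites (8.09%, 6.98 to 9.34), close to the 8.05% of all KO Sox2 summits and above the 3.27% of windows of the genome. New Sox2-only sites gave 3.19%, and the difference was 4.90 points (3.75 to 6.19). Joint KO sites with a WT summit gave 18.3%, a difference of -10.3 points (-11.9 to -8.52), or -15.01 points (-17.5 to -12.5) within height groups. Of those 3865 sites, 3469 had a WT Oct4 summit within 100 bp, which the rule excludes at new joint sites. This difference is therefore not independent of the rule. New Nanog-only sites gave 7.81%, and the interval of the difference included 0 (-1.16 to 1.78). A Sox and an octamer sequence side by side, searched as TTGTNATGCNAAT, were present at 4 new joint sites (0.195%), with 0.416% over all KO Sox2 summits and 0.623% at joint KO sites with a WT summit.

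The Sox motif, homeodomain core and octamer were all missing at 1147 new joint sites (55.9%, 53.7 to 58.004), against 79.0% of new Sox2-only sites and 54.7% of joint KO sites with a WT summit. New joint sites held an octamer less often, and ACAATG more often, than joint KO sites with a WT summit. The octamer difference is not independent of the rule, which excludes WT Oct4 summits. The GC box GGGCGG, common in CpG-rich promoters, was present at 127 new joint sites (6.19%), where all KO Sox2 summits gave 25.2% and new Sox2-only sites 34.7%. AT-rich letters are rarer by composition in the GC-rich windows of the new Sox2-only sites, and the part of composition in the differences from that set was not tested. New joint sites, joint KO sites with a WT summit and new Nanog-only sites had similar G+C, with medians of 45.8% to 47.3%.

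The second form of the Sox motif, ACAATAG, was added after the printed windows had been read, and its shares are a description. It was present at 302 new joint sites (14.7%), where all KO Sox2 summits gave 8.81%, joint KO sites with a WT summit 15.9%, new Sox2-only sites 5.59% and the windows of the genome 2.48%. The difference from joint KO sites with a WT summit was -1.22 points (-3.10 to 0.735), and -3.78 points (-6.30 to -1.26) within height groups. Of the 321 ACAATAG matches at new joint sites, 57.6% lay within 30 bp of the Sox2 summit. So did 45.6% of 754 ACAATG matches, 43.5% of 177 octamers and 35.1% of 279 homeodomain cores. In the same order the shares were 55.1%, 46.6%, 42.5% and 30.7% at new Sox2-only sites. At joint KO sites with a WT summit they were 55.1%, 45.5%, 45.5% and 42.1%, so such shares were not particular to new joint sites. The share expected from an even spread was not computed.

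**Figure D3:**
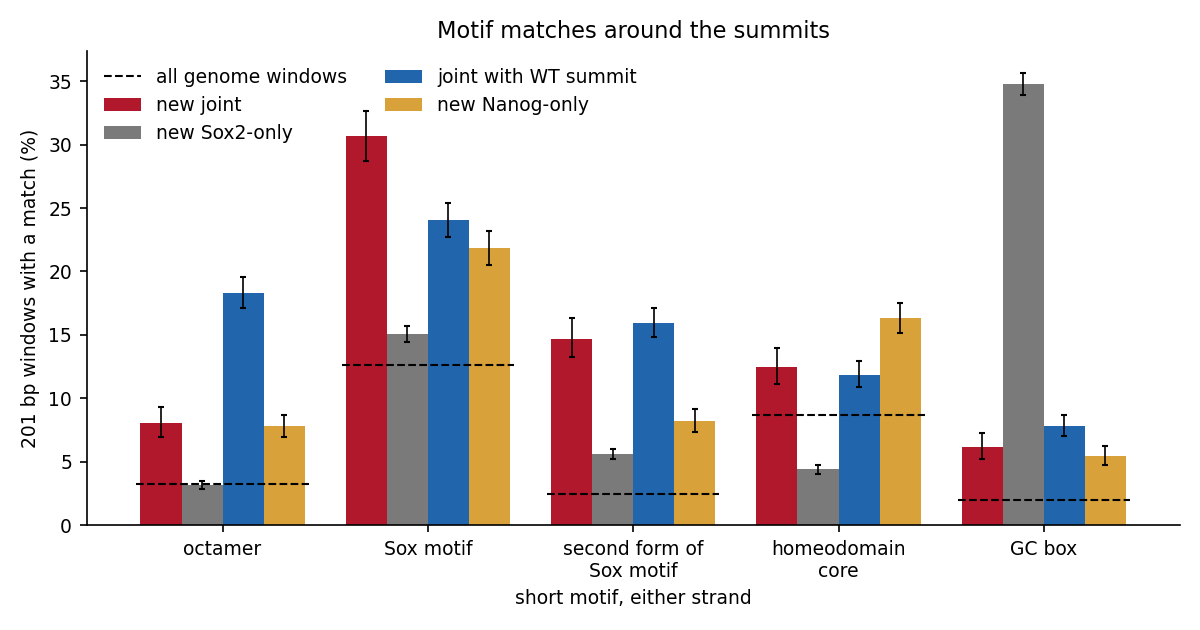
Share of windows, 100 bp on either side of the summits, that held each motif on either strand, in percent with Wilson 95% intervals, and the share over consecutive windows of the genome (dashed). ACAATG was most frequent at new joint sites (30.6%), the octamer at joint KO sites with a WT summit (18.3%) and the GC box at new Sox2-only sites (34.7%), and the second form is ACAATAG.

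H3K4me3 was listed at fewer new joint sites than at other KO Sox2 summits. In WT mESC, 621 new joint sites lay in an H3K4me3 domain (30.2%, 28.2 to 32.2), where all KO Sox2 summits gave 55%. New Sox2-only sites gave 62.7%, and the difference was -32.5 points (-34.6 to -30.3), or -31.3 points (-33.7 to -29.0) within 5 equal groups of Sox2 height. Over sites more than 1 kb from a protein-coding start, a restriction added after the data were seen, the difference was -15.8 points (28.4% against 44.1%). Joint KO sites with a WT summit gave 46.9%, a difference of -16.7 points (-19.2 to -14.1), which was -4.89 points (-7.90 to -1.88) within height groups.

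In KO mESC, 572 new joint sites lay in an H3K4me3 domain (27.8%), where all KO Sox2 summits gave 48.2%. The difference from new Sox2-only sites, at 56.7%, was -28.9 points (-31.0 to -26.7), and over sites more than 1 kb from a start it was -12.6 points. Joint KO sites with a WT summit gave 37.5%, and the difference of -9.71 points (-12.2 to -7.22) was -1.54 points within height groups, with an interval that included 0 (-4.45 to 1.38).

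Few new joint sites had H3K4me3 in KO alone. Of the 2057, 453 (22.0%) were in a domain in both genotypes, 168 (8.17%) in WT alone, 119 (5.79%) in KO alone and 1317 (64.0%) in neither. The share in KO alone was 3.25% at new Sox2-only sites, a difference of 2.53 points (1.54 to 3.67). It was 3.70% at joint KO sites with a WT summit, a difference of 2.09 points (0.956 to 3.31), and 3.43% over all KO Sox2 summits. These shares are over all sites of a set, while only sites outside WT H3K4me3 can be in KO alone. Sites in neither list were 34.1% of new Sox2-only sites and 49.4% of joint KO sites with a WT summit. The differences therefore do not compare gain of H3K4me3 among sites without it in WT. A domain that held a new joint site had a median length of 19.5 kb in WT and 24.7 kb in KO, against 18.2 and 19.5 kb for new Sox2-only sites and 15.6 and 22.1 kb for joint KO sites with a WT summit. Over all domains of the lists the medians were 9.1 and 10.4 kb.

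H3K4me3 varied with position among the new joint sites. In WT it covered 54 of the 57 sites within 1 kb of a start (94.7%), 69.5% at 1 to 5 kb, 40.5% at 5 to 20 kb, 22.6% at 20 to 50 kb and 14.6% farther away. In KO the same groups gave 86.0%, 64.97%, 39.7%, 21.8% and 11.3%. It also varied with height, from 19.7% of the fifth with the lowest Sox2 summits to 40.05% of the fifth with the tallest in WT, whereas equal groups with the lowest and the tallest Nanog summits gave 27.4% and 30.1%.

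H3K27me3 was listed at 443 new joint sites in WT (21.5%, 19.8 to 23.4), where all KO Sox2 summits gave 23.9%. It was listed at 95 sites in KO (4.62%), where all KO Sox2 summits gave 5.96%. The KO H3K27me3 list covered 84.1 Mb against 959.7 Mb in WT, so the length of the whole list was lower in KO as well, and its part in these shares was not tested. The WT share differed from that of new Sox2-only sites by -0.833 points with an interval that included 0 (-2.72 to 1.14), but by 3.66 points (1.66 to 5.65) within height groups, where the direction turned. The difference from joint KO sites with a WT summit, at 28.9%, was -7.34 points (-9.59 to -5.03).

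H3K9me3 was listed at 567 new joint sites in WT (27.6%, 25.7 to 29.5), where all KO Sox2 summits gave 26.8%, and at 956 in KO (46.5%, 44.3 to 48.6), where they gave 46.6%. The WT H3K9me3 list covered 987.6 Mb and the KO list 1085.9 Mb. Of the new joint sites, 21.2% were in a domain in both lists, 25.2% in KO alone and 6.32% in WT alone, so that KO-only cover was more frequent than WT-only cover, as over all KO Sox2 summits (25.1% and 5.39%). In WT the difference was 6.78 points (4.75 to 8.87) from new Sox2-only sites and -10.8 points (-13.2 to -8.32) from joint KO sites with a WT summit. Over sites more than 1 kb from a start the former was 3.45 points (1.29 to 5.67). In KO the difference from new Sox2-only sites was 4.43 points (2.11 to 6.77), and 0.275 points within height groups with an interval that included 0 (-2.22 to 2.77).

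Uhrf1 windows, the 10 kb stretches enriched for Uhrf1 in WT mESC, held 44 new joint sites (2.14%, 1.60 to 2.86) in 43 of the 13644 windows, where all KO Sox2 summits gave 3.58%. New Sox2-only sites gave 2.97%, a difference of -0.836 points (-1.47 to -0.0589) that turned to 0.136 points within height groups (-0.565 to 0.836). Over sites more than 1 kb from a start it was -2.05 points (-2.79 to -1.19). New Nanog-only sites gave 4.94%, a difference of -2.80 points (-3.72 to -1.82). The 44 sites were a median of 28.3 kb from a start, none within 1 kb, and 8 lay in WT H3K4me3, 12 in WT H3K27me3 and 14 in WT H3K9me3. Within 1 kb of a WT summit 17 of 237 new joint sites were in a Uhrf1 window (7.17%), against 20 of 1451 (1.38%) where the nearest WT summit was over 10 kb away.

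**Figure D4:**
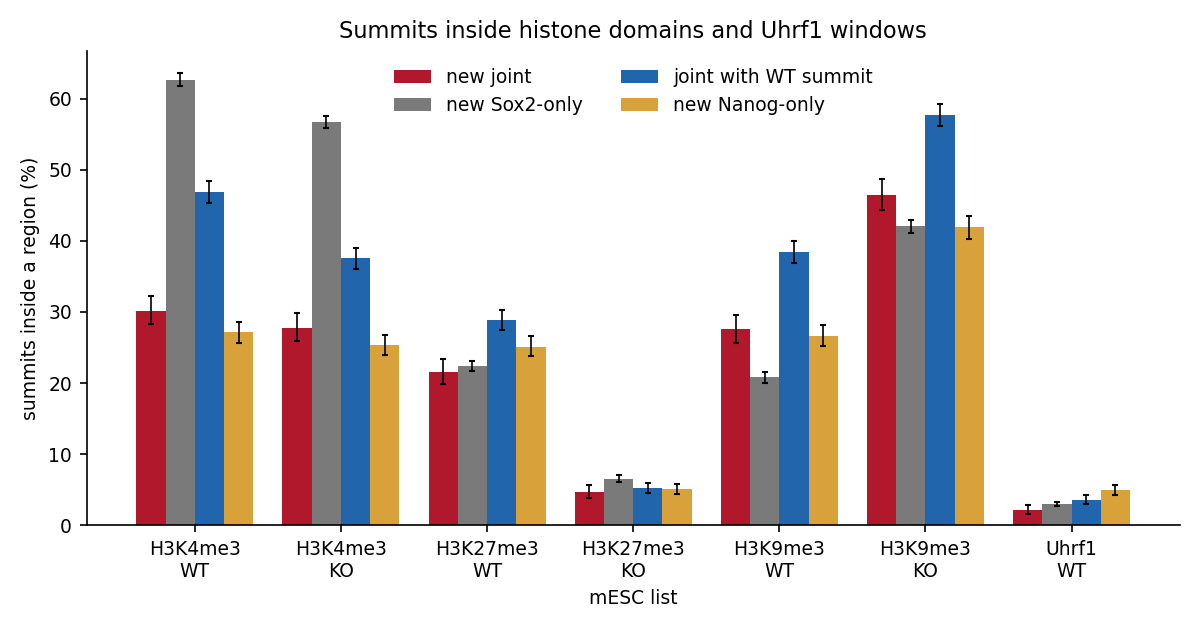
Share of summits inside a histone domain or Uhrf1 window of mESC, in percent with Wilson 95% intervals, for new joint sites and 3 other sets. New joint sites lay below new Sox2-only sites for H3K4me3 (30.2% against 62.7% in WT) and above them for WT H3K9me3 (27.6% against 20.8%), while new Nanog-only sites gave 27.1% and 26.7%.

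In combination, 1095 new joint sites (53.2%) carried neither H3K4me3 nor H3K27me3 in WT, 519 (25.2%) H3K4me3 alone, 341 (16.6%) H3K27me3 alone and 102 (4.96%) both. New Sox2-only sites carried neither at 28.6%, a difference of 24.6 points (22.3 to 26.9). Joint KO sites with a WT summit did so at 34.7%, a difference of 18.5 points (15.9 to 21.1), and all KO Sox2 summits at 33.0%. New Nanog-only sites gave 52.8%, and the interval of the difference included 0 (-2.25 to 3.14). In KO, 973 of the 1095 unmarked sites still carried neither and 104 (9.50%) carried H3K4me3 alone. Of the 519 sites with H3K4me3 alone, 385 (74.2%) were the same in KO and 123 (23.7%) carried neither. Of the 341 sites with H3K27me3 alone, 287 (84.2%) carried neither in KO, and of the 102 with both marks 43 carried H3K4me3 alone and 35 neither. These changes were not computed for the other sets. Over all KO Sox2 summits H3K27me3 was listed at 23.9% in WT and 5.96% in KO, and the lists covered 959.7 and 84.1 Mb. A lower H3K27me3 share in KO was therefore not particular to the new joint sites. No WT domain of any of the 3 marks and no Uhrf1 window covered 40.4% of the new joint sites. This share was 21.7% at new Sox2-only sites, 20.3% at joint KO sites with a WT summit and 23.0% at all KO Sox2 summits. At new Nanog-only sites it was 39.2%, and the interval of the difference included 0 (-1.50 to 3.79), so it was not particular to the new joint sites.

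In EBs the sites were followed through the lists of weeks 1, 2 and 3. H3K4me3 covered 13.1%, 29.2% and 26.9% of the new joint sites in WT EBs, and 8.22%, 30.9% and 32.5% in KO EBs. At all KO Sox2 summits these shares were 38.4%, 48.3% and 51.9% in WT and 28.9%, 52.1% and 55.3% in KO. H3K27me3 covered 7.92%, 21.9% and 25.5% of the new joint sites in WT EBs and 11.9%, 20.5% and 14.8% in KO EBs. At all KO Sox2 summits the H3K27me3 shares were 12.5%, 22.7% and 24.4% in WT and 14.3%, 19.6% and 15.5% in KO. The H3K4me3 share of the new joint sites was lowest at week 1 in both genotypes, where the lists covered the fewest bases, 107.0 Mb in WT and 73.4 Mb in KO.

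**Figure D5:**
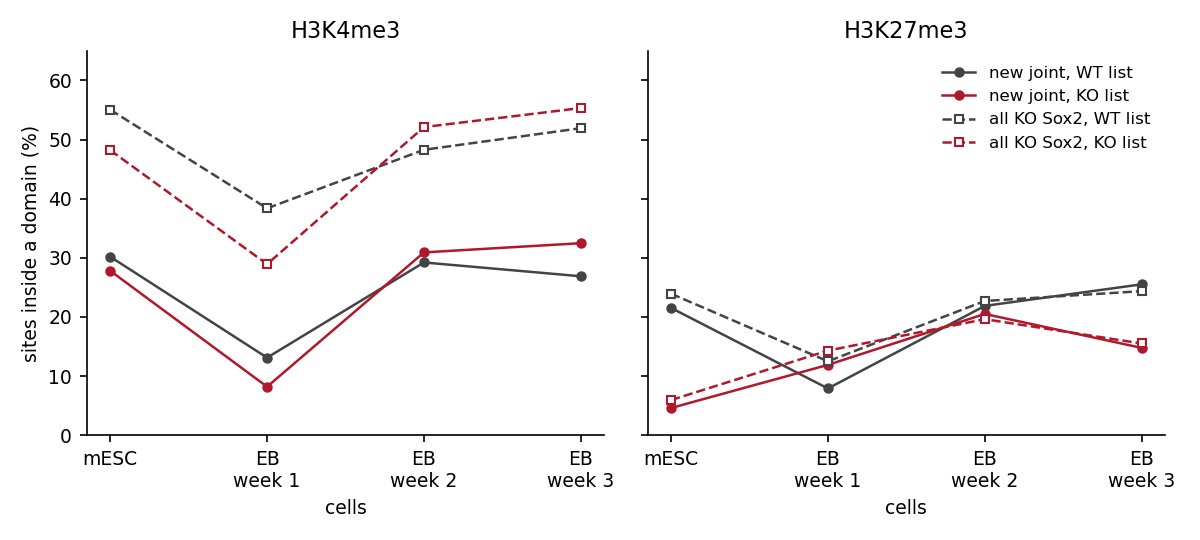
Share of sites inside an H3K4me3 (left) or H3K27me3 (right) domain, in percent, in mESC and in EBs at weeks 1, 2 and 3, for new joint sites (filled) and all KO Sox2 summits (open) in the WT and KO lists. The H3K4me3 share of new joint sites stayed at or below 32.5% at every stage, and the lowest H3K27me3 share was that of KO mESC (4.62%).

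Genes near the sites were taken from the annotation by the distance of their start. Of 22367 protein-coding genes, 2236 had a new joint site within 50 kb of their start (10%). For 1744 genes the start was the one nearest to a new joint site, and 86.2% of these had 1 site. The gene lists were set with earlier results of these data known, so their counts are a description.

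Of 35 listed genes of the pluripotent state, 16 had a new joint site within 50 kb (45.7%), where all protein-coding genes gave 10%, and 34 of the 35 had a KO Sox2 summit of any kind, as did 66.5% of all protein-coding genes. Among the 16 were Pou5f1, Sox2, Klf5, Nr5a2, Tbx3, Sall4 and Lefty1. Listed genes without a new joint site included Nanog, Klf2, Klf4, Esrrb, Zfp42, Prdm14, Stat3 and Lin28a. The closest site was 1.33 kb upstream of Sall1 (ENSMUSG00000031665), a zinc finger repressor, with 28 Sox2 and 10 Nanog reads, in H3K4me3 and H3K9me3 domains in both genotypes. A site in an intron of Mycn (ENSMUSG00000037169), a MYC family factor, 3.03 kb from the start, had 25 and 6 reads and lay in H3K4me3 in both genotypes. A site 6.19 kb upstream of Fgf4, the growth factor that primes stem cells for differentiation, had 19 and 12 reads and lay in H3K4me3 in WT and in H3K27me3 in KO. The Nanog heights at Sall1 and Mycn were below the median of the KO list, and that at Fgf4 was equal to it.

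Of 13 listed genes of the formative and primed state, 5 had a site within 50 kb (38.5%): Etv4, Etv5, Foxd3, Nodal and Otx2. All protein-coding genes gave 10%, and 12 of the 13 had a KO Sox2 summit of any kind. The Otx2 (ENSMUSG00000021848) site lay 12.9 kb downstream of the start of this homeobox gene of the epiblast and forebrain, with 54 Sox2 and 19 Nanog reads, and a WT summit was 441 bp away. It was in H3K4me3 and H3K9me3 in both genotypes and in H3K27me3 in WT alone. The site in an intron of Etv4 (ENSMUSG00000017724), an ETS factor downstream of FGF signalling, had 21 and 26 reads and lay in H3K4me3 and H3K27me3 in WT and in neither in KO. It lay in H3K9me3 in both genotypes. The Foxd3 (ENSMUSG00000067261) site, 19.06 kb downstream of the start of this forkhead factor, had 27 and 37 reads and no listed mark. At Etv4 and Foxd3 the Nanog summit was taller than the Sox2 summit in reads, but the scales of the 2 libraries are not known to be equal.

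Of 14 listed genes of DNA methylation, 3 had a site (21.4%), where all protein-coding genes gave 10%, and 12 had a KO Sox2 summit of any kind. The Tet1 (ENSMUSG00000047146) site, in an intron of this methylcytosine dioxygenase 4.44 kb from the start, had 22 and 11 reads, and a WT summit was 919 bp away. It lay in H3K4me3 in both genotypes and in H3K9me3 in KO alone. The site 3.47 kb upstream of Dnmt3l (ENSMUSG00000000730), the cofactor of the de novo methyltransferases, lay in an intron of Aire with 20 and 6 reads and no listed mark. The site 23.9 kb upstream of Uhrf2 (ENSMUSG00000024817), the paralogue of Uhrf1, had 22 and 37 reads, in H3K27me3 in WT and H3K9me3 in KO, and was closer to the start of Trpd52l3. Uhrf1 itself was not among the 3.

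Of the lineage lists, neuroectoderm had 8 of 18 genes with a site (44.4%) and trophoblast 3 of 12 (25%, Fgfr2 among them by its long gene model). Mesoderm and heart had 1 of 21, endoderm 0 of 14 and germline genes silenced by DNA methylation 1 of 18, Stk31. All protein-coding genes gave 10%. In the same order, 17, 10, 17, 10 and 8 genes had a KO Sox2 summit of any kind within 50 kb. All protein-coding genes gave 66.5% for this, so the lists also differed in Sox2 summits of any kind. In neuroectoderm the sites closest to a start were those of the proneural factors Neurog2 and Neurod1 and of the LIM homeobox gene Lhx2, at 0.482, 1.398 and 1.61 kb, and the Neurod1 site was closer still to the start of Cerkl. Each of these 3 sites lay in both H3K4me3 and H3K27me3 in WT. In KO the Neurog2 site was in both marks, the Neurod1 site in H3K4me3 alone and the Lhx2 site in H3K27me3 alone. The Lhx2 site was also in H3K9me3 in WT. The Neurog2 site was among the lower ones, with 14 Sox2 and 7 Nanog reads and a WT summit 122 bp away.

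Msx2, a homeobox gene of mesoderm and limb, had a site 8.88 kb upstream of its start with 17 and 8 reads. It lay in H3K27me3 in both genotypes and in H3K9me3 in WT alone. The trophoblast genes were Gata3, Tead4 and Fgfr2. The annotation's Fgfr2 model runs from 137305965 to 140315033 on chromosome 7 and overlaps Ctbp2. The Fgfr2 site, at 140304509, lay in an intron of both, 10.5 kb from the start of this long model. Its count for Fgfr2 therefore rests on that model, and whether it belongs to Fgfr2 or to Ctbp2 was not tested. The Tead4 site, in an intron of this partner of the Hippo pathway, had 25 and 18 reads and a WT summit 126 bp away. The Gata3 site, in sequence where the models of Gata3 and 4930412O13Rik overlap and with the start of the latter closer, had 19 and 25 reads and H3K4me3 in both genotypes. It also lay in H3K27me3 and H3K9me3 in WT alone.

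Some genes had several new joint sites. The starts of 5 genes were each the nearest for 5 new joint sites, namely Zfp281, Kit, Etnk1, Tns3 and Pank3. The 5 sites near Zfp281, a zinc finger factor of stem cells, spanned 128.7 kb of chromosome 1 from 138463097 to 138591817, had Sox2 heights of 22 to 28 reads, and 4 of 5 lay in H3K4me3 in both genotypes. All 5 lay in KO H3K9me3 and none in WT H3K9me3. The 5 sites near Kit, the stem cell factor receptor, spanned 122.3 kb of chromosome 5 with heights of 12 to 44 reads, and 1 lay in WT and 2 in KO H3K4me3. The 5 sites near Pank3 spanned 251.1 kb of chromosome 11 with heights of 16 to 70 reads, and none lay in H3K4me3 while all lay in KO H3K9me3. KO H3K9me3 covered 46.6% of all KO Sox2 summits. A KO H3K9me3 domain that held a new joint site had a median length of 599.4 kb. The sites near Zfp281 or near Pank3 can thus share 1 domain, so their counts in KO H3K9me3 are not of separate domains.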

How the data were processed

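ChIP-seq lists of WT and Uhrf1 KO mESC and EBs were used as deposited. The authors mapped reads to mm9 with Bowtie2 2.1.0, keeping 1 alignment per read. They called factor summits with MACS, histone domains with RSEG against input, and Uhrf1 windows of 10 kb over input, 1 list per library. The deposited signal of a summit is its read count, called height here. The domain lists give 2 values: a deposited signal (mean reads in a bin, not used) and a deposited score, used only to leave out low domains. No library depth was used.

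Samples were grouped by their labels. Python 3.11 with pandas 2.3.3, numpy 2.4.6, scipy 1.17.1 and matplotlib 3.10.9 was used. A site was in a domain when its KO Sox2 summit was inside it. Genes were the 22367 protein-coding genes of the GENCODE annotation of NCBIM37, and 2 listed symbols were matched through older names, while Sox1 was not matched. Motifs were searched in that assembly. With 1 library per group no p-value is given. Differences within 5 equal groups of KO Sox2 height were averaged with weights by new joint sites. Class and domain calls and intervals were tested on simulated data, where intervals within height groups held the true difference less often than their nominal level, so they are somewhat too narrow. The members, lists, named-site rule and alternatives were chosen with earlier results of these data known. Named sites were the 12 with the highest smaller rank of both heights, up to 3 genes per list with the closest site, and the 5 genes with most sites. Other sites and genes named were chosen after their values were seen. The alternatives were other summit distances, taller summits, Nanog summits counted in place of Sox2 summits, no crowded windows, height groups, sites over 1 kb from a start (added after the data were seen), domains or windows within 1000 bp, domains of higher score, 5 kb from a start, and shorter windows or the exact octamer. The sequence of 1 site that the named-site rule selects is not reported here.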

Additional observations from a re-analysis of the deposited data

Results flagged for a closer look

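The KO minus WT difference in the share of new joint sites inside a domain changed direction between stages for both marks. Each stage and genotype is 1 library, and the change between stages was not tested. For H3K4me3 the difference was -2.38 points in mESC, -4.91 points at EB week 1, 1.70 points at week 2 and 5.59 points at week 3. Over all KO Sox2 summits the same differences were -6.83, -9.43, 3.84 and 3.41 points, so the directions were shared. For H3K27me3 the difference was -16.9 points in mESC, 3.99 points at week 1, -1.36 points at week 2 and -10.7 points at week 3, and over all KO Sox2 summits it was -17.98, 1.81, -3.07 and -8.85 points. The H3K27me3 lists covered 959.7 Mb in WT mESC against 84.1 Mb in KO mESC, 101.3 and 180.1 Mb at week 1, 1165 and 466.8 Mb at week 2, and 791.4 and 419.9 Mb at week 3. For H3K4me3 it was 216.1 and 188.4 Mb in mESC, 107.0 and 73.4 Mb at week 1, 205.8 and 154.5 Mb at week 2, and 161.9 and 165.7 Mb at week 3. The part of list length in these differences was not tested.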

How the results depend on the processing

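Of 75 alternative values, 46 stayed within the 95% interval of the reported value or, for the number of sites, within 1.5 times of it. The number of new joint sites was 1713 to 2150 under 50 and 200 bp, a WT distance of 1000 bp and a count of Nanog summits, and 907 with only summits at or above the median height. Leaving out 10 kb windows with more than 5 KO Sox2 summits removed no new joint site and left every value unchanged. The values of this setting are among the 46, but they do not test how the results depend on crowding. The differences below are new joint minus new Sox2-only sites, in points. With 50 bp between summits they were -26.6 for KO H3K4me3, -29.8 for WT H3K4me3 and -31.4 for sites within 1 kb of a start. With 200 bp the latter was -35.6. With no WT summit within 1000 bp, KO H3K4me3 gave -31.0 and starts -35.4. With summits at or above the median height, KO H3K4me3 gave -21.8, WT H3K4me3 -24.8, WT H3K27me3 5.35, WT H3K9me3 4.61, starts -24.0 and the octamer 3.49. Within height groups, starts gave -29.0, WT H3K27me3 3.66 and the octamer 3.72, and the Uhrf1 window turned to 0.136. Over sites more than 1 kb from a start, added after the data were seen, KO H3K4me3 gave -12.6, WT H3K4me3 -15.8, the Uhrf1 window -2.05, WT H3K9me3 3.45 and the octamer 3.53. With domains at or above the median score, KO H3K4me3 gave -20.8, WT H3K4me3 -27.1 and WT H3K27me3 1.28. The octamer gave 3.28 with 50 bp on either side of the summit and 3.08 for ATGCAAAT alone. Against joint KO sites with a WT summit, WT H3K4me3 gave -4.89 within height groups and -9.21 with domains of higher score. The causes were not tested. No paired analysis was possible because each group was 1 library and no test was made. The precision is limited by 1 library per group and by lists that hold no reads.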

Other observations

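Most new joint sites were outside H3K4me3 at every stage. In the WT lists 1186 of 2057 sites (57.7%) were in no H3K4me3 domain at any of the 4 stages and 222 (10.8%) were in one at all 4, against 36.1% and 33.9% of all KO Sox2 summits. In the KO lists the values were 57.1% and 7.05% of new joint sites, against 36.2% and 25.9%. H3K27me3 covered none of the 4 stages at 60.6% of new joint sites in WT and 72.2% in KO, close to the 61.2% and 72.9% of all KO Sox2 summits.

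New joint sites were on every chromosome except Y among those placed. Chromosome 11 held 200 (9.72%), the largest number, and chromosome 1 held 149. They made up 7.83% of the KO Sox2 summits of chromosome 7, the lowest share of a placed chromosome other than Y, and 12.7% of those of chromosome X, the highest. These shares are a description with no test.

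The form ACAAAG of the Sox motif was also added after the data were seen. It was present within 100 bp of the summit at 44.6% of new joint sites and 39.6% of joint KO sites with a WT summit. New Nanog-only sites gave 32.6%, new Sox2-only sites 22.8% and consecutive windows of the genome 18.04%. For new Nanog-only sites the summit is that of Nanog, and a KO Sox2 summit is excluded there by definition.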
